A study of Arabidopsis thaliana with 12 samples.

Results

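Transcript levels of whole Arabidopsis thaliana seedlings were compared between the mutant ssrp1-2 and its wild type Col-0, 12 days after germination. The comparison takes 6 of the 12 libraries of the series, all of those labelled ssrp1-2 (n = 3) and Col-0 (n = 3), and every gene of the count table. All plants were kept for 4 days at 4 °C as seeds and then grown on soil in long days at about 21 °C, and total RNA was sequenced. The groups carry no treatment and differ, per the labels, by genotype alone. The other 6 libraries, 3 each of spt16-2 and nrpb2-3, entered the fit for its estimate of spread and served for direct tests against ssrp1-2. The labels do not state the nature of the ssrp1-2 allele, nor whether the libraries of a genotype came from separate sowings. The spread that the p-values rest on may therefore be technical.

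SSRP1 is the smaller subunit of FACT, a heterodimer with SPT16 that loosens nucleosomes ahead of RNA polymerase II and helps to restore them behind it. In plants FACT has been linked to transcript elongation, to the timing of flowering and to branching and leaf shape. The flowering time genes met below form a chain in which repressors such as FLC hold back integrators such as FT and SOC1, which in turn switch on the MADS-box genes that build floral meristems and organs. In whole seedlings, fewer cells of a type and less RNA per cell cannot be told apart, which holds for every difference given here.

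Each of the 6 libraries held 39483328 to 41398174 counts. Levels are given as CPM, each gene's share of its library's counts scaled with TMM factors, as mean ± SD over 3 libraries, and fold changes as log2 ± SE of the fit. A gene is called where the p of edgeR's quasi-likelihood test, adjusted by Benjamini-Hochberg across the 20471 tested genes, was under 0.05. Nuclear photosynthesis genes took 23.2% ± 1.72 of the counts in Col-0 and 21.97% ± 1.37 in ssrp1-2, so the libraries hold abundant transcripts of green tissue. Of 19 root markers 10 passed the filter on low counts and RHD6, PLT1, EXP7 and MYB72 had 0 counts in the 6 libraries. The 10 tested summed to 59.1 to 68.2 CPM in Col-0 and 61.8 to 69.2 CPM in ssrp1-2. Col-0 replicate 1 stood apart, with 1.23% of its counts in rRNA genes and 0.474% in organelle genes, against at most 0.495% and 0.207% in the other 11 libraries. Its part in the results was measured by leaving it out. The library labelled spt16-2 replicate 2 does not show a lowered SPT16 transcript, and without it the shared fit called 75 higher and 16 lower.

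SSRP1 (AT3G28730) itself gave 38.9, 48.4 and 44.2 CPM in the wild-type libraries, and 20.7, 19.7 and 17.9 CPM in those of the mutant. Every mutant library lay below every wild-type library, and the transcript was reduced rather than missing. The fall was −1.17 ± 0.11 (adjusted p = 0.00046), and without any 1 of the 6 libraries the adjusted p stayed at 0.0042 or less. SSRP1 overlaps the annotated gene CYP81D11, whose level was low in both genotypes (0.281 ± 0.265 CPM in Col-0, 0.278 ± 0.130 CPM in ssrp1-2). The partner subunit SPT16 (AT4G10710) held 44.9, 62.0 and 54.6 CPM in Col-0 and 77.6, 86.4 and 78.3 CPM in ssrp1-2. Its groups did not overlap, yet the difference of 0.59 ± 0.22 did not pass the test (adjusted p = 0.38). Of 15 genes for FACT and other histone chaperones SSRP1 was the only 1 called. Among the rest, the elongation factor and chaperone SPT6L stood at 0.43 ± 0.16 (adjusted p = 0.38) and NAP1;3 at −0.37 ± 0.21 (adjusted p = 0.66).

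**Figure D1:**
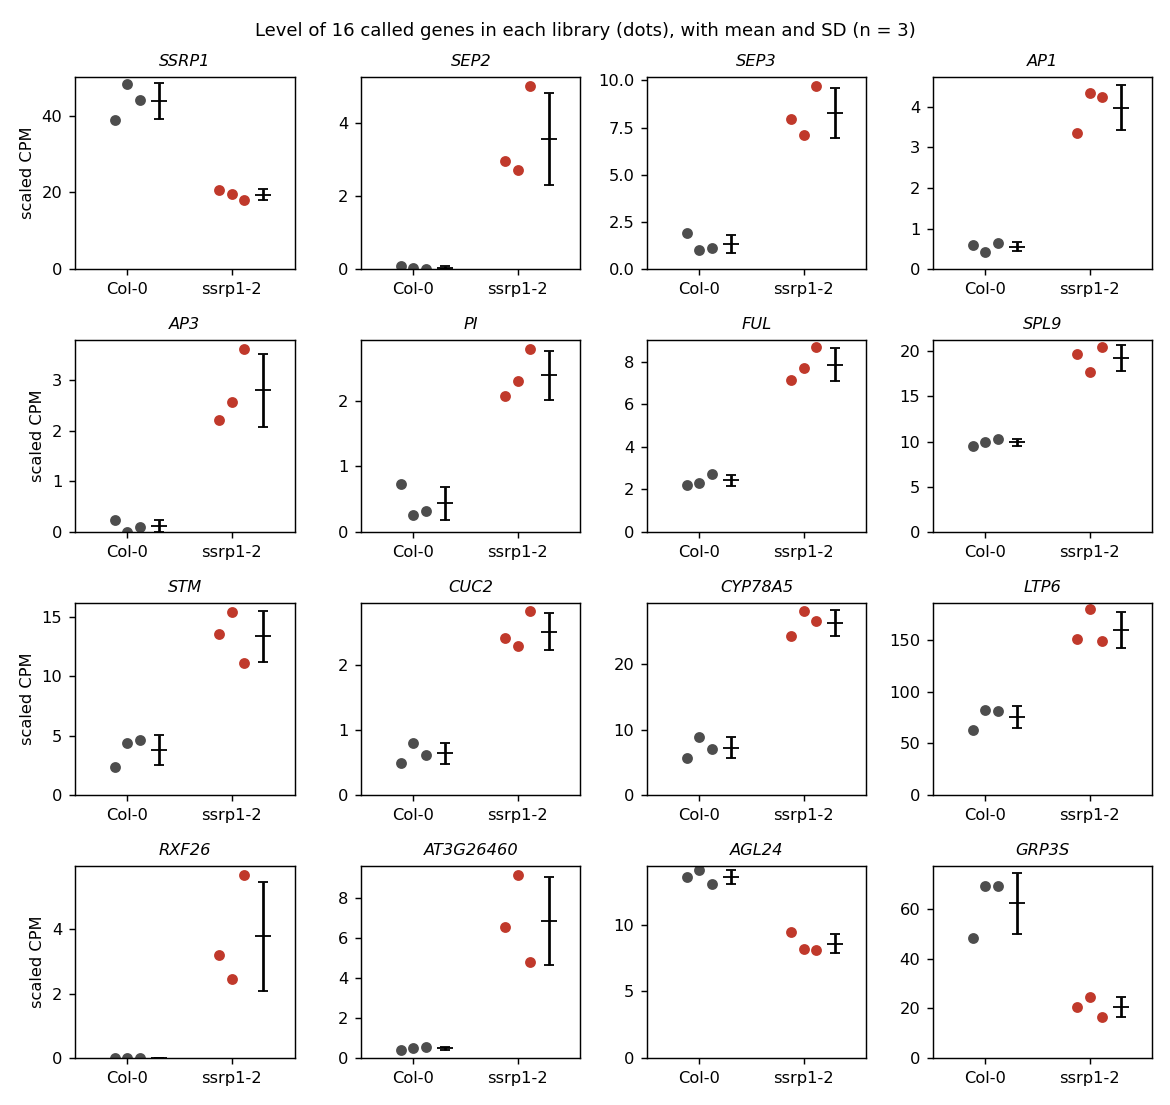
Scaled CPM (vertical axis, from 0) of 16 called genes in each Col-0 and ssrp1-2 library (dots), with the mean and SD over 3 libraries beside them. In none of the 16 panels do the groups overlap: SSRP1, AGL24 and GRP3S lie lower in ssrp1-2 and the other 13 genes higher.

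In all, 93 genes were higher and 21 lower in ssrp1-2, which is 0.557% of the genes tested (0.454% higher and 0.103% lower). These counts rest on the spread estimated over all 12 libraries. With the 6 compared libraries fitted alone, edgeR called 34 higher and 3 lower. With 1 library left out, it called 38 and 4 (without Col-0 replicate 1), 39 and 9 (Col-0 replicate 2), 42 and 16 (Col-0 replicate 3), 49 and 1 (ssrp1-2 replicate 1), 53 and 3 (ssrp1-2 replicate 2) or 41 and 3 (ssrp1-2 replicate 3). All 114 had groups that did not overlap, as had 13.8% of all tested genes. At least 2-fold changes made up 78 of the higher and 11 of the lower calls, and at least 8-fold changes 26 and 2. Of the 93 higher genes 49 had a Col-0 mean under 1 CPM, as had 3083 of the 20471 genes tested. Genes so scarce in Col-0 pass the filter mainly through a group where they are high, so nothing is read from that count. Of the genes with a Col-0 mean of at least 10 CPM, 11 were called higher and 14 lower. The median log2 fold change over all tested genes was 0.00.

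**Figure D2:**
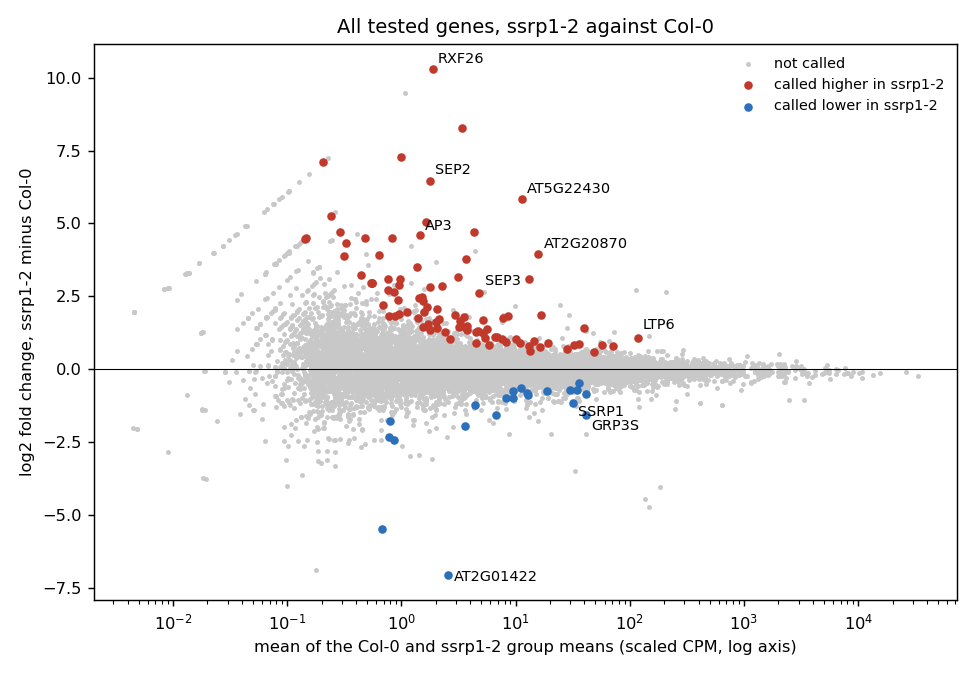
Log2 fold change of ssrp1-2 over Col-0 (vertical axis) against the mean level (horizontal log axis, scaled CPM) for tested genes with a count in these 6 libraries, with 93 genes called higher in red, 21 called lower in blue and the rest in grey. Calls are spread over levels from under 1 CPM to that of LTP6, and the fitted values of genes with 0 counts in a group, such as RXF26, depend on the prior count of the fit.

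Among the 42 lists, chosen with earlier results of these data known, was 1 of genes that give floral organs their identity. Of its 10 tested members 5 were higher and 0 lower, against 0.454% and 0.103% of all genes tested. The median was 2.26, and 1.34 with limma on the authors' scaled TPM plus 1. SEP2 and AP3, scarce in Col-0 and nrpb2-3, passed the filter through ssrp1-2 and spt16-2, so the median is not ranked against other lists. SEP2 (AT3G02310), a SEPALLATA MADS-box gene that acts in all floral whorls, held 0.0878, 0.0289 and 0 CPM in Col-0 and 2.94, 2.71 and 4.99 CPM in ssrp1-2. It was thus close to silent in the wild type and present in each mutant library (6.44 ± 0.65, adjusted p = 0.00048). Its fold change was 5.86 without Col-0 replicate 3 and 7.71 without Col-0 replicate 1. Its paralog SEP3 (AT1G24260) held 1.90, 1.01 and 1.101 CPM in Col-0 and 7.95, 7.11 and 9.73 CPM in ssrp1-2. The lowest mutant library lay more than 3 times above the highest wild-type library (2.63 ± 0.28, adjusted p = 0.00078). SEP1 just missed the threshold (1.95 ± 0.41, adjusted p = 0.056), and SEP4 was not called (−0.19 ± 0.17, adjusted p = 0.81).

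The genes that define petals and stamens moved with them. AP3 (AT3G54340) held 0.234, 0 and 0.107 CPM in Col-0 and 2.204, 2.57 and 3.603 CPM in ssrp1-2, with a wide gap between the groups (4.59 ± 0.58, adjusted p = 0.0034). The fold change of AP3 was 4.02 without Col-0 replicate 2 and 5.58 without Col-0 replicate 1. Its dimer partner PI (AT5G20240) rose from 0.438 ± 0.256 to 2.39 ± 0.372 CPM (2.45 ± 0.40, adjusted p = 0.015). Leaving out Col-0 replicate 2 (adjusted p = 0.066), Col-0 replicate 3 (0.063) or ssrp1-2 replicate 3 (0.063) ended the call of PI. AP1 (AT1G69120), which starts floral meristems, held 0.585, 0.433 and 0.645 CPM in Col-0 and 3.35, 4.35 and 4.23 CPM in ssrp1-2, groups that lay far apart (2.83 ± 0.35, adjusted p = 0.0029). By contrast AG, which specifies stamens and carpels, was not called (0.46 ± 0.45, adjusted p = 0.83), with 0.808 to 1.93 CPM in Col-0 and 1.81 to 2.54 CPM in ssrp1-2. Neither was AP2 (0.05 ± 0.12, adjusted p = 0.95) or the AP1 paralog CAL (2.07 ± 1.06, adjusted p = 0.59).

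Markers of organs that form later in the flower were mostly too scarce to test. Of 14 carpel, ovule and fruit genes 7 passed the filter and 0 were called, with a summed level of 20.2 to 31.8 CPM in Col-0 and 31.3 to 35.1 CPM in ssrp1-2 (median log2 fold change 0.26). CRC, which patterns carpels and nectaries, lay at the threshold (2.73 ± 0.57, adjusted p = 0.051), with 0.263 to 0.564 CPM in Col-0 and 2.37 to 3.34 CPM in ssrp1-2. Of 16 stamen and pollen genes 3 passed the filter and 0 were called, and the summed levels were 21.9 to 24.6 and 21.5 to 23.8 CPM. The stamen regulators MS1, MYB80, MYB26 and MYB21 had 0 counts in the 6 libraries.

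Upstream of the organ identity genes, calls were fewer. Of 10 tested floral promoters and integrators 1 was higher and 1 lower (median 0.64). Fold changes were positive for 8 of the 10, and for 10181 of all 20471 genes tested. At an unadjusted p under 0.05, 4 were higher and 1 lower, as were 5.52% and 3.86% of all genes. FUL (AT5G60910), a relative of AP1 that acts in the shoot apex and the fruit, held 2.22, 2.31 and 2.74 CPM in Col-0 and 7.16, 7.72 and 8.69 CPM in ssrp1-2, all mutant libraries being higher (1.69 ± 0.22, adjusted p = 0.0036). AGL24 (AT4G24540), a promoter of flowering that acts with SOC1, went the other way, from 13.6, 14.1 and 13.03 to 9.42, 8.18 and 8.14 CPM. The groups of AGL24 did not overlap (−0.66 ± 0.13, adjusted p = 0.045), but its call ended without any 1 of the 6 libraries (adjusted p = 0.086 to 0.19). The integrators themselves were not called: FT stood at 0.44 ± 0.46 (adjusted p = 0.85), SOC1 at 0.00 ± 0.24 (adjusted p = 1) and LFY at 1.99 ± 0.72 (adjusted p = 0.37).

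Among 9 tested SPL genes, transcription factors of the age pathway held back by miR156, SPL9 (AT2G42200) was higher and 0 were lower (median 0.31). SPL9 held 9.48, 9.90 and 10.3 CPM in Col-0 and 19.6, 17.7 and 20.4 CPM in ssrp1-2, a clean separation of the groups (0.96 ± 0.12, adjusted p = 0.0036). Its relatives SPL2 (0.47 ± 0.19, adjusted p = 0.44) and SPL10 (0.31 ± 0.20, adjusted p = 0.71) were not called. SPL3 is listed at 0 in all 12 libraries together with the annotated RNA that overlaps it, and SPL15 is also listed at 0. Of genes whose whole span lies inside another annotated gene, 72.6% are listed at 0 in every library, against 16.1% of the others, so a 0 at such a locus was not read as absence.

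None of the tested repressors of flowering was called by edgeR. All 7 tested members of the FLC clade with SVP had a negative fold change, 0 were called, 4 had an unadjusted p under 0.05, and the median was −0.70. Over all 20471 genes tested, 10231 fold changes were negative and 3.86% of genes were lower at an unadjusted p under 0.05. FLM, a repressor with a role in the response to temperature, held 24.3, 19.0 and 21.5 CPM in Col-0 and 13.01, 13.7 and 14.3 CPM in ssrp1-2, without overlap (−0.66 ± 0.14, adjusted p = 0.069). MAF3 held 6.004 to 8.35 CPM in Col-0 and 3.97 to 4.46 CPM in ssrp1-2 (−0.70 ± 0.19, adjusted p = 0.17), and FLC reached at most 1.01 CPM in the 6 libraries (−1.26 ± 0.86, adjusted p = 0.73). SVP was the nearest to 0 of the 7 (−0.02 ± 0.14, adjusted p = 0.99). The AP2-like and TEM repressors were not called either (0 of 9), and 4 of their 9 fold changes were positive (median −0.15, 0.03 without Col-0 replicate 3 and 0.05 with limma on the authors' scaled TPM plus 0.1).

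**Figure D3:**
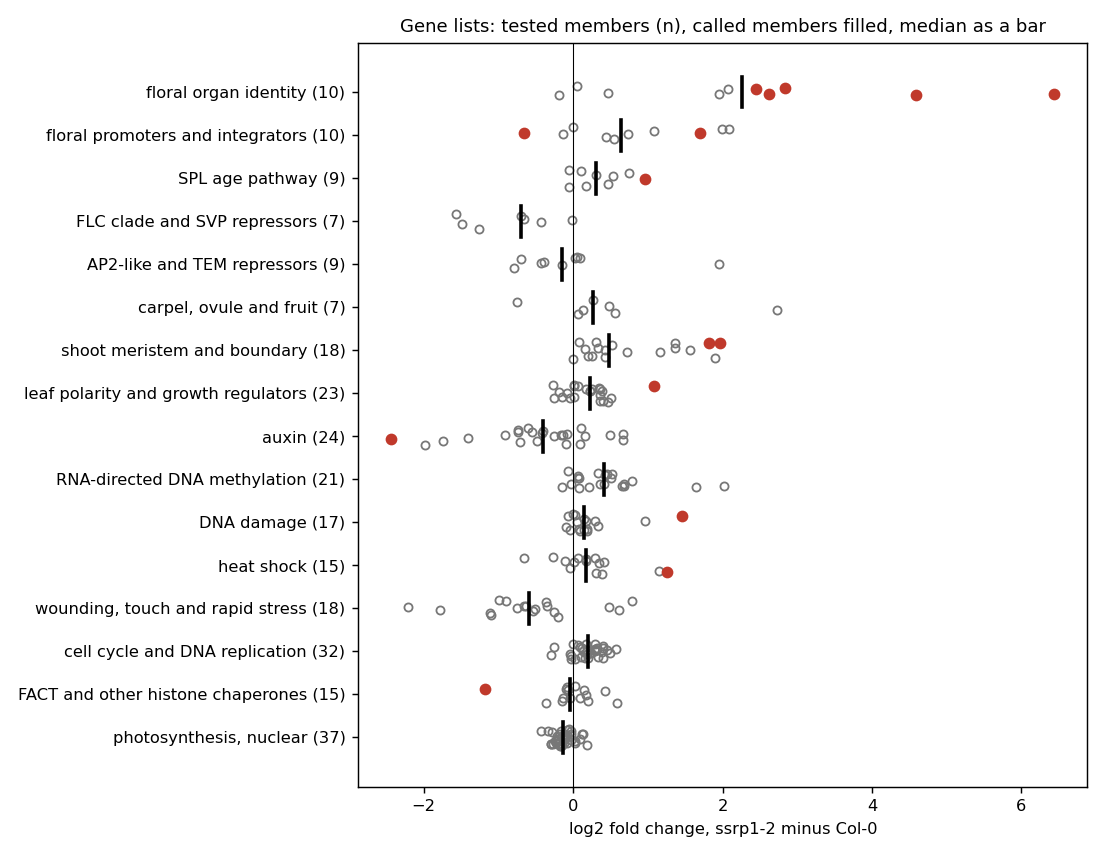
Log2 fold change of ssrp1-2 over Col-0 (horizontal axis) for the tested members of 16 gene lists, the number tested standing in brackets, with called members as filled red dots, the others as open circles and the median as a black bar. The bar of the floral organ identity genes lies at 2.26 and that of the FLC clade at −0.70, while the photosynthesis genes crowd around −0.14.

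Some genes of the shoot meristem and of organ boundaries were higher as well. Of 18 tested members 2 were higher and 0 lower, the median was 0.48, and 17 of the 18 fold changes were positive, compared with 10181 of the 20471 genes tested. STM (AT1G62360), the homeobox gene that keeps meristem cells undifferentiated, held 2.37, 4.39 and 4.62 CPM in Col-0 and 13.6, 15.4 and 11.2 CPM in ssrp1-2. Each mutant library was more than 2 times above each wild-type library (1.82 ± 0.22, adjusted p = 0.0029). CUC2 (AT5G53950), a NAC factor that marks the boundary between organs, held 0.497, 0.808 and 0.618 CPM in Col-0 and 2.42, 2.30 and 2.85 CPM in ssrp1-2, again without overlap (1.97 ± 0.29, adjusted p = 0.0082). The KNOX relatives of STM were not called, KNAT6 being the nearest to the threshold (1.57 ± 0.35, adjusted p = 0.077) before KNAT1 (1.36 ± 0.36, adjusted p = 0.17). WUS and CLV3, which mark the stem cell niche, had too few counts to be tested.

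Further called genes act at the shoot apex or in young leaves, all but GRF5 outside the fixed lists. CYP78A5, LMI1, DPA4, GRF6 and GRF8 were picked after their values were seen. CYP78A5 (AT1G13710), a cytochrome P450 that promotes organ growth from the organ base, held 5.71, 8.89 and 7.09 CPM in Col-0 and 24.2, 28.1 and 26.6 CPM in ssrp1-2. It had one of the smallest adjusted p-values of all genes (1.86 ± 0.18, adjusted p = 0.00046), and its groups were far apart. The homeobox gene WOX9 (AT2G33880), named by its fold change, rose from 0.0675 ± 0.0927 to 1.58 ± 0.717 CPM (4.51 ± 0.81, adjusted p = 0.023). WOX9 lost its call without Col-0 replicate 1, Col-0 replicate 3, ssrp1-2 replicate 1 or ssrp1-2 replicate 3 (adjusted p up to 0.13), and its fold change was 6.54 without Col-0 replicate 2 and 3.92 without Col-0 replicate 3. LMI1, a homeobox gene active at leaf margins (1.83, adjusted p = 0.024), and DPA4, a repressor of CUC2 at those margins (1.33, adjusted p = 0.018), were also higher. So were 3 of the 9 tested GRF genes, growth-regulating factors of leaf cell proliferation: GRF5 (1.08 ± 0.20), GRF6 (1.90) and GRF8 (1.97). That family was counted after the calls were seen, and 0.454% of all genes tested were called higher. GRF5 belongs to the fixed list of leaf polarity and growth regulators, where 1 of 23 tested members was higher and 0 lower (median 0.22). The calls of LMI1, GRF5, GRF6 and GRF8 ended without any 1 of the 6 libraries, and DPA4 kept its call only without ssrp1-2 replicate 1 (adjusted p up to 0.11 for LMI1, 0.080 for DPA4, and 0.15, 0.15 and 0.16 for the GRF genes).

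Several called genes are annotated with lipases, lipid transfer or wax synthesis. They were put side by side after the calls were seen, with no list fixed and no test of the grouping. RXF26 (AT1G58430), a GDSL-type lipase gene, had 0 counts in all 3 Col-0 libraries and 3.21, 2.46 and 5.69 CPM in those of ssrp1-2. Against a floor of 3 counts over the Col-0 group it was at least 136-fold higher (adjusted p = 0.0039). Of 63 tested GDSL-type lipase genes 4 were higher and 0 lower, with a median of −0.01 for the family. Over all genes tested 0.454% were called higher. The most abundant of the 4, AT5G33370, rose from 21.6 ± 2.91 to 57.1 ± 15.3 CPM (1.41 ± 0.21, adjusted p = 0.011). Its call ended without Col-0 replicate 1 (adjusted p = 0.055) or Col-0 replicate 3 (0.057). LTP6 (AT3G08770), a lipid transfer protein gene, held 62.8, 81.9 and 81.3 CPM in Col-0 and 150.5, 179.7 and 148.9 CPM in ssrp1-2, the highest CPM, not corrected for length, of any gene called higher (1.08 ± 0.16, adjusted p = 0.0092). AT1G02190, annotated as a fatty acid hydroxylase, rose from 0.627 ± 0.156 to 5.63 ± 0.935 CPM (3.16 ± 0.31, adjusted p = 0.00046). The wax ester synthase WSD1 (1.78, adjusted p = 0.026), its relative FOP1 (3.88, adjusted p = 0.045) and the lipid exporter ABCG13 (1.09, adjusted p = 0.019) were higher too. Of the 7 tested WSD1-like genes these were the 2 called, and the family ranged from −3.13 to 3.88 (median 0.12). WSD1 and FOP1 kept their calls in only 1 of the 6 leave-outs each (ssrp1-2 replicate 2 for WSD1 and ssrp1-2 replicate 1 for FOP1), and ABCG13 in 0 (adjusted p up to 0.11, 0.17 and 0.092). The fold change of FOP1 was 3.35 without ssrp1-2 replicate 3 and 5.09 without Col-0 replicate 3.

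A pair of genes for floral terpenes stood next to each other in the annotation and both rose. Of 8 genes listed for flower scent and nectar 3 were tested, 2 of them higher (TPS11 and SWEET10), against 0.454% of all genes tested. TPS11 passed the filter on low counts through ssrp1-2 and spt16-2, so nothing is read from that count. CYP706A3 was picked after its value was seen. TPS11 (AT5G44630), a sesquiterpene synthase, held 0.351, 0.0289 and 0.215 CPM in Col-0 and 1.55, 1.34 and 2.29 CPM in ssrp1-2, above the wild type in each library (3.11 ± 0.64, adjusted p = 0.0497). Its neighbour CYP706A3, a cytochrome P450 that oxidises terpenes in flowers, held 3.32 to 4.11 CPM in Col-0 and 10.2 to 13.8 CPM in ssrp1-2 (1.74, adjusted p = 0.026). Both calls ended without any 1 of the 6 libraries (adjusted p of at most 0.21 for TPS11 and 0.14 for CYP706A3). The fold change of TPS11 was 2.60 without Col-0 replicate 2 and 3.77 without Col-0 replicate 1. SWEET10 (AT5G50790), a sugar exporter gene, held 0.790, 0.808 and 0.752 CPM in Col-0 and 3.35, 2.30 and 4.28 CPM in ssrp1-2, again without overlap (2.08 ± 0.29, adjusted p = 0.0054). RDR3 and RDR4, RNA-dependent RNA polymerase genes that also lie side by side, were the other such pair among the 114 (1.23, adjusted p = 0.021, and 1.43, adjusted p = 0.021). They are outside the fixed lists and were picked after the calls were seen. RDR4 lost its call without any 1 of the 6 libraries (adjusted p up to 0.10), and RDR3 kept it without Col-0 replicate 3 only (0.0998 at most).

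Other wide fold changes belonged to genes named by their annotation only. AT5G22430, of the pollen Ole e 1 allergen and extensin family, held 0.790, 0.202 and 0.161 CPM in Col-0 and 18.8, 14.9 and 32.7 CPM in ssrp1-2. The mutant libraries varied among themselves but all lay far above the wild type (5.85 ± 0.78, adjusted p = 0.013). The call ended without Col-0 replicate 2 (adjusted p = 0.072) or Col-0 replicate 3 (0.060). The fold change was 5.46 without ssrp1-2 replicate 3 and 6.91 without Col-0 replicate 1. AT2G20870, annotated as a cell wall protein precursor, rose from 1.87 ± 1.18 to 29.4 ± 8.72 CPM (3.97 ± 0.51, adjusted p = 0.0096). Its call was lost without Col-0 replicate 2 (0.062), and its fold change was 3.63 without Col-0 replicate 1 and 4.59 without Col-0 replicate 3. AT3G28500, a 60S acidic ribosomal protein family gene, held 4.24, 1.93 and 2.095 CPM in Col-0 and 22.1, 22.4 and 25.7 CPM in ssrp1-2, a gap wider than either group (3.09 ± 0.30, adjusted p = 0.00048). AT3G26460, of the polyketide cyclase and lipid transport superfamily, held 0.410, 0.491 and 0.564 CPM in Col-0 and 6.53, 9.14 and 4.79 CPM in ssrp1-2 (3.79 ± 0.35, adjusted p = 0.00046).

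For genes with 1 to 3 counts over a group, the ratio is given with its 95% counting interval, which covers counting error only. MLP328, a gene of the MLP-like family, drew 1 count in Col-0 and 219 in ssrp1-2 over 3 libraries each, a ratio of 206 (36.5 to 8157). AT1G75945 had 2 and 769 counts, a ratio of 361 (99.6 to 2986), and lost its call without any 1 Col-0 library or without ssrp1-2 replicate 3 (adjusted p up to 0.091). The zinc-binding dehydrogenase gene AT5G37940 rose from 0.0925 ± 0.0595 to 3.22 ± 0.271 CPM (5.06 ± 0.83, adjusted p = 0.016). Its call ended without the same 4 libraries (adjusted p up to 0.13). The fold change of AT5G37940 was 4.82 without Col-0 replicate 2 and 5.72 without Col-0 replicate 3. AT4G16270, a peroxidase gene, was at 3.49 ± 0.70 (adjusted p = 0.045, and up to 0.21 with 1 library left out). It was called without Col-0 replicate 2, at 4.62, or ssrp1-2 replicate 2, and stood at 2.96 without Col-0 replicate 3. AT1G67105, annotated as a non-coding RNA, held 0.468, 0.260 and 0.215 CPM in Col-0 and 13.9, 5.01 and 5.997 CPM in ssrp1-2 (4.72 ± 0.64, adjusted p = 0.014). The call of AT1G67105 ended without any 1 Col-0 library (adjusted p up to 0.083), and its fold change was 4.13 without ssrp1-2 replicate 1.

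SBT1.3 (AT5G51750), a subtilisin-like protease gene, held 52.1, 50.9 and 55.5 CPM in Col-0 and 88.5, 87.0 and 96.3 CPM in ssrp1-2, with little spread in either group (0.78 ± 0.11, adjusted p = 0.0049). HMGA, which encodes an AT-hook protein of chromatin and was named after its value was seen, rose from 23.2 ± 2.39 to 41.4 ± 2.06 CPM (0.84, adjusted p = 0.0070). AT4G37550, an acetamidase family gene, was at 0.58 ± 0.10 (adjusted p = 0.015) and AT5G48480, of the glyoxalase I family, at 0.81 ± 0.14 (adjusted p = 0.022). AT4G37550 kept its call without ssrp1-2 replicate 1 only (adjusted p up to 0.076 otherwise), and AT5G48480 without Col-0 replicate 2 or ssrp1-2 replicate 3 only (up to 0.094).

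Stress and genome maintenance lists held few calls. Of 15 tested heat shock genes 1 was higher, the small chaperone gene HSP18.2, at 2.84, 2.60 and 2.52 CPM in Col-0 and 6.04, 7.09 and 5.95 CPM in ssrp1-2 (1.26 ± 0.19, adjusted p = 0.0092). The heat shock factor gene HSFA2 (0.17 ± 0.60, adjusted p = 0.98) and HSP101 (0.35 ± 0.19, adjusted p = 0.63) were not called, and the list median was 0.18. Of 17 tested DNA damage genes 1 was higher, GMI1 (AT5G24280), which is induced by DNA breaks (1.94 ± 0.766 to 5.32 ± 1.18 CPM, 1.45 ± 0.29, adjusted p = 0.043). GMI1 lost its call without any 1 of the 6 libraries (adjusted p up to 0.15), and BRCA1 (0.14 ± 0.28, adjusted p = 0.94) was not called. Of 21 tested genes of RNA-directed DNA methylation 0 were called, although 18 fold changes were positive (median 0.41; 10181 of all 20471 genes tested). Of the 21 members 8 had an unadjusted p under 0.05 in the higher direction, as had 5.52% of all genes (9.37% in either direction). AGO9, an Argonaute of that pathway, came nearest (2.02 ± 0.44, adjusted p = 0.071), followed by RDR2 (0.79 ± 0.18, adjusted p = 0.087).

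Some lists varied more between libraries than between genotypes. The summed level of 18 wounding, touch and rapid stress genes ran from 294 to 1151 CPM in Col-0 and from 297 to 940 CPM in ssrp1-2, with replicate 2 the highest of each group for WRKY33 (105 and 42.7 CPM) and SZF1 (184 and 137 CPM). None of the 18 was called (median −0.59; 0 higher and 1 lower at an unadjusted p under 0.05). Among 25 jasmonate and ethylene defence genes, also with 0 calls, the defensin gene PDF1.2A ranged from 27.4 to 752 CPM among the Col-0 libraries alone, and lay at 16.2 to 24.9 CPM in ssrp1-2 (−4.04 ± 1.25, adjusted p = 0.32). VSP2, a jasmonate marker, reached 933 CPM in ssrp1-2 replicate 2, against 34.6 to 72.9 CPM in the other 5 libraries (2.64 ± 0.97, adjusted p = 0.42). Nuclear photosynthesis (0 of 37, median −0.14), the cell cycle (0 of 32, median 0.19), core histones (0 of 28, median −0.03), H2A.Z with SWR1 and INO80 (0 of 16, median 0.08), Pol II subunits (0 of 15, median −0.08) and transcript elongation factors (0 of 23, median 0.08) held 0 calls in either direction.

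Lower transcripts were fewer, and included genes of auxin growth responses. Of 24 tested auxin genes 1 was lower and 0 higher, with a median of −0.41 and 18 negative fold changes (10231 of all 20471 genes tested). Of the 24, 9 had an unadjusted p under 0.05 in the lower direction, as had 3.86% of all genes. SAUR19 (AT5G18010), a gene that promotes cell expansion, held 1.58, 1.79 and 0.967 CPM in Col-0 and 0.272, 0.192 and 0.328 CPM in ssrp1-2, without overlap (−2.43 ± 0.48, adjusted p = 0.040). It belongs to a cluster of near-identical genes whose reads may be split among them, and its neighbours SAUR20 (0.10 ± 0.61, adjusted p = 0.99) and SAUR22 (−1.41 ± 0.49, adjusted p = 0.35) were not called. The auxin-induced repressor IAA29 came next in the list (−1.98 ± 0.46, adjusted p = 0.092). HAT2 (AT5G47370), an auxin-induced homeobox gene, fell from 26.1, 23.8 and 21.7 to 13.9, 12.7 and 15.5 CPM, clearly below the wild type (−0.77 ± 0.15, adjusted p = 0.033). AT5G13370, annotated as a GH3 family gene, was at −0.75 (adjusted p = 0.046). The calls of SAUR19, HAT2 and AT5G13370 ended without any 1 of the 6 libraries (adjusted p up to 0.16, 0.13 and 0.20).

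Other lower genes carried varied annotations. ACS4 (AT2G22810), which makes the precursor of ethylene, held 8.72, 3.41 and 4.996 CPM in Col-0 and 1.69, 1.04 and 1.66 CPM in ssrp1-2, all lower than the wild type (−1.96 ± 0.37, adjusted p = 0.032; called without Col-0 replicate 2 but not without any other library, up to 0.14). GRP3S (AT2G05380), a glycine-rich cell wall protein gene, fell from 48.3, 69.4 and 69.5 to 20.7, 24.8 and 16.7 CPM, with no overlap (−1.59 ± 0.25, adjusted p = 0.015). The call of GRP3S ended without Col-0 replicate 2 (adjusted p = 0.063), Col-0 replicate 3 (0.060), ssrp1-2 replicate 1 (0.072) or ssrp1-2 replicate 3 (0.077). LUP1, a lupeol synthase gene, fell from 12.7 ± 2.32 to 6.31 ± 1.64 CPM (adjusted p = 0.046). The alpha carbonic anhydrase gene ACA2 was at −0.99 ± 0.20 (adjusted p = 0.046), and both calls were lost without any 1 library (up to 0.19 and 0.20). AT3G19810 was at −0.73 ± 0.12 (adjusted p = 0.015, lost without Col-0 replicate 1 or ssrp1-2 replicates 1 or 2, up to 0.076), but it overlaps DWF1 and AT3G19800, so its counts may hold reads of those genes. The non-coding RNA AT2G01422 held 1.52, 1.85 and 12.0 CPM in Col-0 and at most 0.0547 CPM in ssrp1-2 (−7.06 ± 1.104, adjusted p = 0.016). Its fold change was −5.45 without Col-0 replicate 3, and the call ended without any 1 ssrp1-2 library (up to 0.11). Also lower were AT3G05727 (−1.59 ± 0.30, adjusted p = 0.037), AT4G16750 (−1.22 ± 0.25, 0.0497), AT5G07860 (−0.90 ± 0.15, 0.014), AT1G76960 (−0.86 ± 0.17, 0.042), AT4G21445 (−0.83 ± 0.16, 0.038) and AT2G17033 (−0.49 ± 0.10, 0.045). AT4G16750, AT4G21445 and AT2G17033 lost their calls without any 1 library. AT3G05727 kept its call only without Col-0 replicate 1 or 3, AT5G07860 without Col-0 replicate 3 and AT1G76960 without Col-0 replicate 2.

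Of the 114 called genes, 29 stayed called without each of the 6 libraries in turn, 28 of them higher and 1, SSRP1, lower. The floral genes SEP2, SEP3, AP1, AP3, FUL and SPL9, the apex genes STM, CUC2 and CYP78A5, and the lipid-related genes RXF26, LTP6 and AT1G02190 were among the 29. So were the chaperone genes HSP18.2, Hsp70-2 and AT5G47600. Hsp70-2 and AT5G47600 are outside the fixed lists and were put beside HSP18.2 after the calls were seen. The fixed heat shock list held 1 call among 15 tested genes (median 0.18). Apart from SSRP1, no lower gene was among the 29. None of the 114 changed sign in any alternative that tested it.

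**Figure D4:**
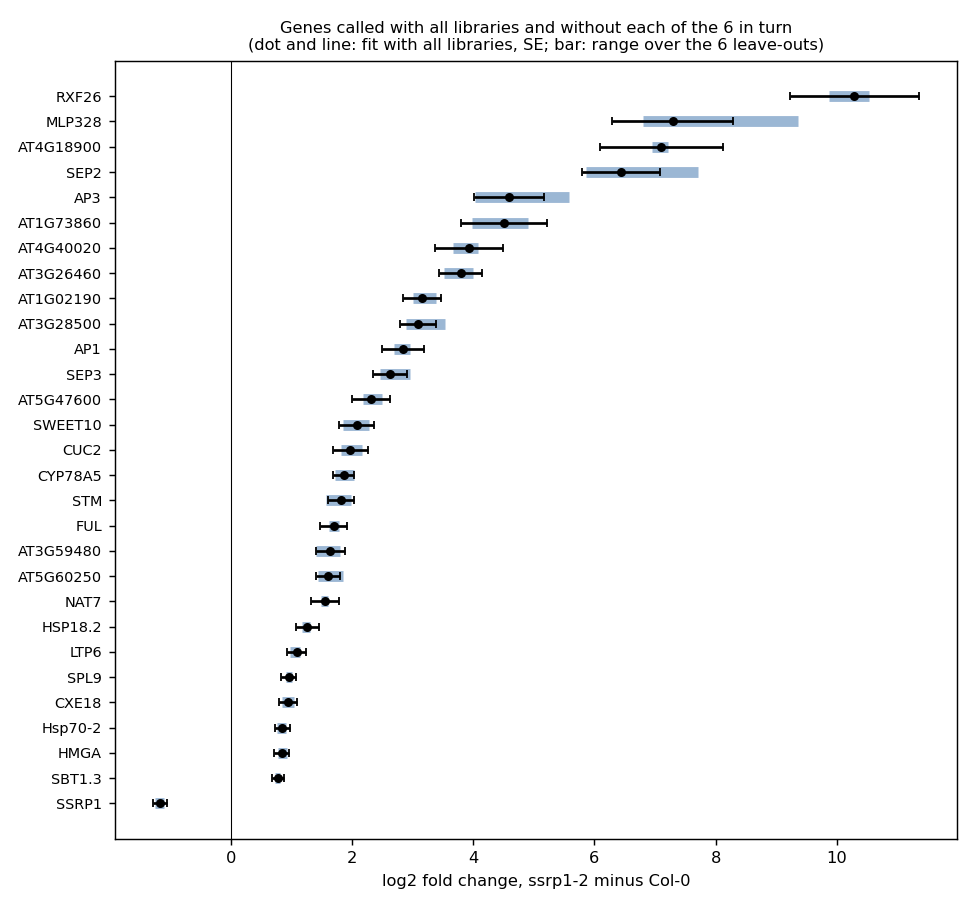
Log2 fold change of ssrp1-2 over Col-0 (horizontal axis) for the 29 genes called with all libraries and without each of the 6 in turn, with the fitted value and SE as a dot and line and the range over the 6 leave-outs as a blue bar. SSRP1, at −1.17, is the only gene left of 0; RXF26 and AT4G18900 had 0 counts in Col-0, so their fitted values are not fold sizes.

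Direct tests against the other mutants asked which of these levels differ from those in spt16-2, the mutant of the other FACT subunit, and in nrpb2-3, a mutant of a Pol II subunit. These tests use the same ssrp1-2 libraries as the comparison with Col-0. Between ssrp1-2 and spt16-2, 14 genes were called, 3 higher and 11 lower in ssrp1-2, which is 0.0684% of the genes tested (0.0147% higher and 0.0537% lower). The count fell to between 4 and 7 without any 1 library of either mutant, and DESeq2 called 49. SEP3 stood at 8.26 ± 1.33 CPM in ssrp1-2 and 13.9 ± 2.00 CPM in spt16-2 (−0.75 ± 0.25, adjusted p = 1), and SEP2 at 3.55 ± 1.26 and 1.59 ± 0.228 CPM (1.16 ± 0.43, adjusted p = 1). STM (0.73 ± 0.21, adjusted p = 0.66), SPL9 (0.43 ± 0.12, adjusted p = 0.63) and CYP78A5 (0.73 ± 0.17, adjusted p = 0.32) were not called between the FACT mutants either. A p that misses the threshold does not show that the levels are alike.

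Among the genes called against Col-0, the direct test called SSRP1, AT3G26460, AT1G52100 and AT5G60250. SSRP1 was lower in ssrp1-2 than in spt16-2 (−1.42 ± 0.11, adjusted p = 0.00014). AT3G26460 was at 6.82 ± 2.19 CPM in ssrp1-2 and 1.104 ± 0.408 CPM in spt16-2, higher by 2.62 ± 0.32 (adjusted p = 0.0070). AT1G52100, a mannose-binding lectin gene, held 1.38, 1.53 and 0.806 CPM in Col-0, 0.381, 0.356 and 0.328 CPM in ssrp1-2 and 1.65, 1.55 and 1.39 CPM in spt16-2. It was thus low in the ssrp1-2 libraries alone of these 9 (−2.10 ± 0.30 against spt16-2, adjusted p = 0.016). Against Col-0 it was at −1.79 ± 0.31 (adjusted p = 0.018), a call that held without Col-0 replicate 3 only (up to 0.096). AT5G60250, a RING finger gene, was higher in ssrp1-2 than in Col-0 (2.99 ± 0.238 and 0.986 ± 0.282 CPM; 1.60 ± 0.20, adjusted p = 0.0034) and lower than in spt16-2 (9.17 ± 0.665 CPM; −1.62 ± 0.18, adjusted p = 0.0037).

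Between ssrp1-2 and nrpb2-3, 4733 genes were called, 23.1% of those tested, so a call of a member there is common (2975 without ssrp1-2 replicate 1, 2927 without nrpb2-3 replicate 3 and 10096 with library totals). The floral genes were higher in ssrp1-2 than in nrpb2-3, with SEP3 at 3.03 ± 0.28 (adjusted p = 2.5e-05), AP3 at 5.40 ± 0.60 (adjusted p = 8.5e-05) and FUL at 2.49 ± 0.23 (adjusted p = 2.2e-05). SWEET10 was higher by 5.65 ± 0.37 (adjusted p = 2.0e-06). Its level was 3.31 ± 0.993 CPM in ssrp1-2 and 0.0623 ± 0.0191 CPM in nrpb2-3, the latter also below the 0.783 ± 0.0286 CPM of Col-0. Of the apex genes, CUC2 was higher in ssrp1-2 than in nrpb2-3 by 1.66 ± 0.28 (adjusted p = 0.0013) and WOX9 by 2.28 ± 0.64 (adjusted p = 0.021). STM and CYP78A5 were not called: STM held 13.4 ± 2.14 CPM in ssrp1-2 and 16.3 ± 1.57 CPM in nrpb2-3 (−0.29 ± 0.21, adjusted p = 0.34), and CYP78A5 held 26.3 ± 1.93 and 29.4 ± 3.31 CPM (−0.16 ± 0.17, adjusted p = 0.52). AT1G67105 was lower than in nrpb2-3, with 83.0 ± 27.2 CPM there (−3.32 ± 0.48, adjusted p = 0.0015).

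**Figure D5:**
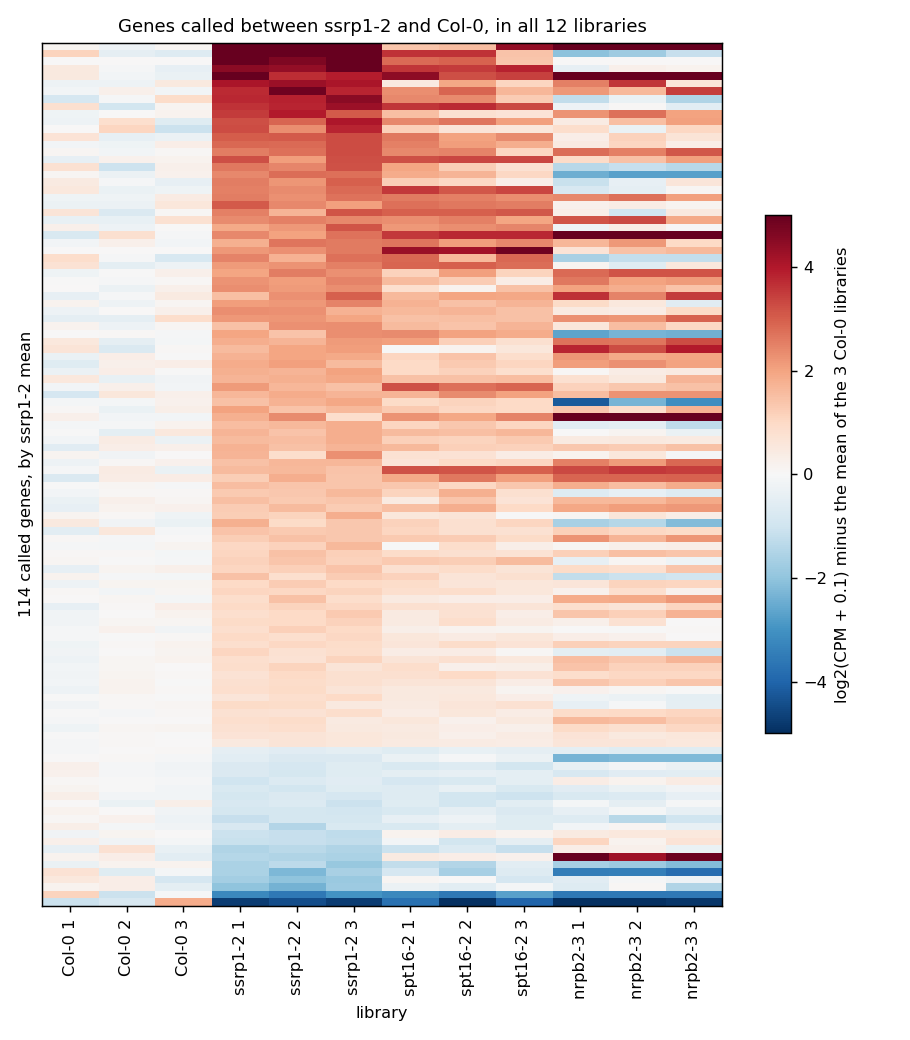
Levels of the 114 genes called between ssrp1-2 and Col-0 (rows, by their ssrp1-2 mean) in all 12 libraries (columns), as log2(CPM + 0.1) minus the mean of the 3 Col-0 libraries, red being higher and blue lower. Rows were chosen for their difference between the first 6 columns, and the other 6 columns are set against the same Col-0 libraries.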

How the data were processed

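RNA was sequenced from whole seedlings of 4 genotypes, 3 libraries each. The authors deposited raw counts per gene for 32833 loci, made with fastp 0.23.4 and HISAT2 2.2.1 on TAIR10, per the submitters' processing notes. How reads were assigned to genes (tool, strand, shared reads) is not given in the sources used here, so counts of overlapping genes and close paralogs are uncertain. A deposited table called TPM holds a signal, the count over a gene length rescaled across libraries by the authors, and was used as an alternative.

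Counts were tested with edgeR 4.0.16 (R 4.3.3): factors by TMM, low genes removed by filterByExpr (minimum count 10), all 12 libraries in a robust quasi-likelihood fit on genotype alone, and Benjamini-Hochberg adjustment over 20471 tested genes of 26456 with a count. On simulated counts the script recovered 63 of 100 genes changed 2-fold and 94 of 100 changed 4-fold. It also called 12 unchanged genes there. Depth was 39483328 to 43434901 counts per library, and without molecular identifiers the intervals given cover counting error only.

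The 42 gene lists (813 entries, 810 matched to a locus), the rule for named genes, the comparisons and the alternatives were chosen with earlier results of these data known. Families and genes grouped after the calls were seen are marked so. Named genes are SSRP1, SPT16 and NRPB2; per direction the 15 called genes of largest fold change whose groups do not overlap and whose higher group averages 50 counts or more; per list up to 4 called members and any member said not to be called; per direction the 5 called genes with the highest level; and up to 5 called alike against all 3 other genotypes. NRPB2 held 42.3 ± 5.43 CPM in Col-0 and 49.6 ± 1.17 CPM in ssrp1-2 (0.23 ± 0.12, adjusted p = 0.61).

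Names came from the TAIR10.1 annotation (32548 loci found), and no coordinates or sequences of that build are printed. Promoter motifs were planned and not analysed here. Alternatives were DESeq2 1.42.0, limma 3.58.1 on that deposited signal as log2 with a pseudocount of 1 or 0.1, other scalings and filters, a replicate block, a fold threshold and each library left out.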

Additional observations from a re-analysis of the deposited data

Results flagged for a closer look

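The 4 genes below were called against Col-0 and also in the direct test between ssrp1-2 and spt16-2, so the size of the change differed between the FACT mutants by a test of the difference itself. On the log2 scale, ssrp1-2 minus spt16-2 was −1.42 for SSRP1, the gene mutated in ssrp1-2. It was 2.62 for AT3G26460 and −2.10 for AT1G52100, each in the same direction as against Col-0. It was −1.62 for AT5G60250, which was higher than in Col-0 and lower than in spt16-2. The ssrp1-2 libraries enter both tests, and the library labelled spt16-2 replicate 2 enters the second.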

How the results depend on the processing

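None of the 114 called genes changed sign in any alternative that tested it, and 21 kept their call in every such alternative but the fold threshold. Not every alternative tested all 114: the limma runs tested 103 of them and the minimum count of 50 left 100. DESeq2 called all 114, among 210 genes higher and 79 lower (49 in all between ssrp1-2 and spt16-2). The 6 libraries fitted alone gave 34 higher and 3 lower, and the fold threshold of 2 gave 14 higher and 0 lower (edgeR). Without spt16-2 replicate 2, an alternative chosen after seeing the data, 75 were higher and 16 lower. Library totals with no factor gave 72 higher and 8 lower, with the median of all genes at 0.07, and 10096 calls between ssrp1-2 and nrpb2-3; limma on the authors' scaled TPM plus 1 gave 13 lower. With 1 library left out, 38 to 53 genes were higher and 1 to 16 lower, 4 to 7 were called between ssrp1-2 and spt16-2, and 2927 to 4372 between ssrp1-2 and nrpb2-3. With a replicate block 143 genes were higher and 49 lower (113 of the 114 kept), 20 were called between ssrp1-2 and spt16-2 and 6356 between ssrp1-2 and nrpb2-3. The labels do not say that a number marks a shared sowing or batch, so the block is an alternative. Deviations of same-numbered Col-0 and ssrp1-2 libraries correlated at −0.02, 0.52 and 0.34, and ssrp1-2 replicate 1 correlated best with Col-0 replicate 3 (0.21). The second principal component (14.7% of variance) followed the numbers in all 4 genotypes, at −32.1 to −18.1 in replicate 2, −4.19 to 11.6 in replicate 1 and 14.8 to 23.7 in replicate 3. That is a hint of pairing from the data, not from the design. Of 42 list medians 19 moved by more than the spread of the libraries in at least 1 alternative, most often without Col-0 replicate 1 (10 lists). Medians of the longest transcripts lay above those of the shortest (0.09 and −0.06 in the outermost of 10 length classes), and with the length trend removed 74 genes were higher and 23 lower. Genes under about 1 CPM rest on few reads.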

Other observations

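Some of the called genes form small families of their own, read off the annotation after the calls were seen from 11 product names tried, with no test. Over all genes tested 0.454% were called higher and 0.103% lower. Of 3 tested genes for the first enzyme of purine synthesis, glutamine phosphoribosyl pyrophosphate amidotransferase, 2 were higher, ASE1 (0.825 ± 0.209 to 2.28 ± 0.301 CPM, adjusted p = 0.037) and ASE3 (0.461 ± 0.324 to 2.54 ± 0.872 CPM, adjusted p = 0.048). Of 65 tested B3 domain genes 4 were higher (family median 0.29), among them REM1, named for its expression in reproductive meristems (2.38, adjusted p = 0.018). Of 40 tested MADS-box genes 6 were higher and 1 lower, all of them named in the lists of flowering genes, and of 60 SAUR genes 0 were higher and 1 lower. Of these ASE1 lost its call without any 1 of the 6 libraries (adjusted p up to 0.15), while ASE3 kept it without Col-0 replicate 1 only (up to 0.19, log2 fold change 3.17 there against 2.46) and REM1 without ssrp1-2 replicate 1 only (up to 0.090). The fold change of ASE3 was 2.08 without Col-0 replicate 3.

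The genes QQS and FPF1 were picked after their values were seen. QQS, a gene found in Arabidopsis alone among known plants and linked to starch, was at 0.664 to 1.90 CPM in Col-0, 3.67 to 5.34 CPM in ssrp1-2, 1.16 to 1.80 CPM in spt16-2 and 12.1 to 19.6 CPM in nrpb2-3. Its call against Col-0 (1.86, adjusted p = 0.018) ended without Col-0 replicates 2 or 3 or ssrp1-2 replicates 2 or 3 (up to 0.078). FPF1, which promotes flowering when overexpressed, held 0.0866 to 0.146 CPM in Col-0 and 0.844 to 1.13 CPM in ssrp1-2 (adjusted p = 0.043, up to 0.16 with 1 library left out).

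The genes called near SSRP1 in gene order were counted in 4 windows. Of the 100 tested genes nearest to it 1 was called (1.0%, AT3G28500), of 200 there were 2 (1.0%), of 400 there were 3 (0.75%, with QQS and AT3G26460) and of 1000 there were 3 (0.30%), against 0.557% of all genes tested. AT3G28500 also held 13.8 ± 2.91 CPM in spt16-2, against 2.76 ± 1.29 CPM in Col-0.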
